A study of Mus musculus with 5 samples.

Results

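Myelin and differentiating oligodendrocyte genes were read in cultured neural precursor cells of the adult mouse forebrain: Mbp, Mag, Mog, Myrf, Fa2h, Cnp, Ugt8a, Tmem163 and Cdk18, 9 of the 46078 genes listed in the abundance tables. Their rows were taken by gene symbol, and the genes had been chosen by earlier readings of these same values, the TPM in each library and the counts by column, so their values are given as a description without a test. The cells came from the subventricular zone, the stem cell niche along the lateral ventricles, of C57BL/6 mice labelled as female, 5 to 8 weeks old and of the genotype "No mutation". The study's methods give an older age for such mice. Cells were passaged as neurospheres with EGF and FGF, plated without differentiation, and given a PBS sham exposure of 1h (replicates 1 and 2, n = 2 libraries) or 8h (replicates 13, 14 and 15, n = 3 libraries). The labels describe hydrogen peroxide exposures in the wider experiment, of which these are sham controls; the study used them as undifferentiated forebrain cells and counts 1 animal as 1 biological replicate, while the labels do not tie a library to an animal. The numbers that identify the libraries fall into a first series (both 1h libraries and 8h replicate 14) and a second series (8h replicates 13 and 15), so the second series holds 8h libraries only.

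Oligodendrocytes wrap axons in myelin, a stack of membrane that is rich in galactolipids and held together by a few abundant proteins. They arise from oligodendrocyte precursor cells (OPCs), which some stem cells of the subventricular zone also give rise to. OLIG2 and SOX10 mark the lineage throughout, and MYRF, a membrane-bound transcription factor that cleaves itself to free its DNA-binding part, switches on the myelin genes as precursors leave the cell cycle. Of the markers of the labelled cell type (NPC), all 8 genes of a stem cell list (Nes, Sox2, Egfr and Fabp7 among them) had a mean of at least 1 TPM (transcripts-per-million, scaled for length and depth), and they summed to at least 8958 TPM in each of the 5 libraries. All 7 microglia genes had a mean under 1 TPM, with Aif1, C1qa and Tmem119 listed at 0 in every library. Of 6 endothelial and mural genes, 1 had a mean of at least 1 TPM, and Cdh5 and Cldn5 were at 0 throughout. That list summed to between 10.3 and 13.8 TPM. Of 4 ependymal genes, 1 had a mean of at least 1 TPM, Tmem212 was at 0 throughout, and the sum was 16.3 to 27.5 TPM. The astrocyte list of 9 genes summed to between 1121 and 1271 TPM in the first series and to 1876 and 1929 TPM in the second. The stem cell list was likewise higher in the second series (10714 and 11642 TPM against at most 9527 TPM), and a neuroblast and neuron list of 7 genes was lower (45.8 and 49.7 TPM against 64.3 to 71.9 TPM).

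The libraries did not all go with their labels. Xist, which is transcribed from the inactive X chromosome, was at 0.0285 to 0.0611 TPM in the first series and at 165 and 199.7 TPM in the second, and Y-linked genes summed to between 138 and 181 TPM in the first series and to at most 0.0253 TPM in the second, although all 5 libraries are labelled as female. Mitochondrial genes took 10.7% to 11.1% of TPM in the first series and 6.23% and 6.30% in the second. The count table held 7599 genes and 13988166 to 18572154 counts a column. Columns were set against TPM tables over 7190 genes, after taking out each gene's count per TPM and centring on the median. That count per TPM came from the other 1h library, or from both 1h libraries for an 8h column. Each 1h column lay within 0.1 on the log2 scale of its own TPM table for 77.6% of genes. This is a single shared value, as each 1h library is the reference of the other. The column named 8h replicate 13 did so for 25.1% with its own table and for 78.6% with the table of 8h replicate 14, and the column named 8h replicate 15 for 41.3% with its own table and for 78.7% with that of 8h replicate 13. Only 25.3% of genes in the column named 8h replicate 14 matched the table of that name, and the best match to any table was 39.8%, to 1h replicate 2. Columns are therefore called by their names below, and their values stand beside those of the TPM tables, never pooled with them.

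The count column named 8h replicate 14 held far more reads of these genes than the other columns, by amounts that differed between genes, and 4 promoters are shown before the values: those of Mag and Cdk18, among the genes furthest above the other columns there, and those of Ugt8a and Cnp, the genes least above them. The sequences are from RefSeq on GRCm38.p6, written 5′ to 3′ toward the start site, and 6 of the 9 genes matched the promoter table, Mag with 3 entries of which the one nearest to its annotated start was used; Mbp, Myrf and Fa2h did not match. Each line holds the part of the 250 bases before the start that overlaps no annotated exon: chr7:30914874-30915113 for Mag, chr1:132139686-132139935 for Cdk18 and chr3:125938653-125938902 for Ugt8a, all on the minus strand, and chr11:100574689-100574903 for Cnp on the plus strand. Capitals mark matches to the motifs named after the sequences.
Mag: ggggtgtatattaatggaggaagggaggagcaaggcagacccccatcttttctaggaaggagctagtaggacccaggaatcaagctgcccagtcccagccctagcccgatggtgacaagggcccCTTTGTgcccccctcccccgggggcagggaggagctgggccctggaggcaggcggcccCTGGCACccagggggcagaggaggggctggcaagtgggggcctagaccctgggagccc
Cdk18: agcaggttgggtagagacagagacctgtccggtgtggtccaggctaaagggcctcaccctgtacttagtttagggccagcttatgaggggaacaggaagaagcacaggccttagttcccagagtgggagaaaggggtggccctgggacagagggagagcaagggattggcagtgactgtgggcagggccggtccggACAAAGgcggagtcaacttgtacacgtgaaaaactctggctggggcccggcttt
Ugt8a: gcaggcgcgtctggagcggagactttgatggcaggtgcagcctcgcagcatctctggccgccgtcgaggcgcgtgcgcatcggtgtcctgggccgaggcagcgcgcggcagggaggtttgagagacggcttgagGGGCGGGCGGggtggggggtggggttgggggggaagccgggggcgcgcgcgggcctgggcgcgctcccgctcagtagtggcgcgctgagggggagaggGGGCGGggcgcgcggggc
Cnp: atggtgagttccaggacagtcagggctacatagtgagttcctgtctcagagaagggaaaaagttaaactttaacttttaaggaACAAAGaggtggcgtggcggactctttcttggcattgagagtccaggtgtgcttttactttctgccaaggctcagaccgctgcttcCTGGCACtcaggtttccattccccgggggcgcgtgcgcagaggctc

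The motifs below were searched on both strands of the 250-base windows. ACAAAG, a form of the core bound by SOX factors, matched in Mag, Cdk18 and Cnp and in 16.5% of all 32851 promoters. CTGGCAC, a form of the MYRF motif, matched in Mag and Cnp and in 4.19% of all promoters, and the other form, CTGGTAC, matched in Mog (1.83% of all). The GC box GGGCGG matched 3 times in Ugt8a, with 2 of the matches overlapping each other, and 2 times in Cnp, in the part that overlaps an exon and is not shown (32.7% of all). The E-box CAGCTG (13.0% of all) and TATAAA (12.4% of all) matched in none of the 6 windows. The window of Tmem163 lay wholly within annotated exons, as its start site (127678021) lies inside the annotated gene. Its lack of matches is thus not a reading of sequence before the annotated start. GC content ran from 46.8% in Mog to 76.8% in Ugt8a, against a median of 52.4%, and CpG dinucleotides from 2 to 32, against a median of 6.

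In the TPM tables, these genes spanned from a mean of 149.7 TPM to means under 1 TPM, and all 9 had a lower mean of log2(TPM + 1) at 8h than at 1h. Myrf (chromosome 19, 10208272 to 10240748, minus strand of GRCm38, as are all positions below), the regulator among them, was at 7.91 and 8.04 TPM at 1h and at 2.53, 6.79 and 4.74 TPM in 8h replicates 13, 14 and 15. Every 8h library lay below both 1h libraries, by little in replicate 14 and by more in the other two. The means were 7.98 ± 0.0962 TPM (SD, n = 2) at 1h and 4.69 ± 2.13 TPM (SD, n = 3) at 8h, a difference of -0.73 on the log2(TPM + 1) scale.

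Among the proteins of the sheath, Mbp (chromosome 18, 82475146 to 82585637, plus strand), which compacts the inner faces of the myelin membrane, moved most. It was at 38.5 and 31.7 TPM at 1h, and at 7.96, 27.8 and 10.99 TPM in 8h replicates 13, 14 and 15. The 1h and 8h values did not overlap, yet the 8h library of the first series stood much nearer to the 1h libraries than to the other 8h libraries. Its mean was 35.1 ± 4.76 TPM (SD, n = 2) at 1h and 15.6 ± 10.7 TPM (SD, n = 3) at 8h (-1.30 on the log2(TPM + 1) scale), and 3.45 times as high in the first series as in the second.

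Cnp (chromosome 11, 100574904 to 100591729, plus strand), a cyclic nucleotide phosphodiesterase of non-compact myelin that OPCs already make, was the most abundant member. It stood at 162 and 181 TPM at 1h and at 119.6, 151 and 134 TPM in 8h replicates 13, 14 and 15. The groups did not overlap, and the difference was shallow, the 1h mean being 1.27 times the 8h mean (-0.35 on the log2(TPM + 1) scale). Cnp took 64.0% to 80.7% of the members' summed TPM, which came to 253 and 254 TPM at 1h, and to 148 (replicate 13), 217 (replicate 14) and 178 TPM (replicate 15) at 8h.

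Mag (chromosome 7, 30899176 to 30914873, minus strand), an adhesion molecule of the membrane that faces the axon, was at 8.83 and 6.83 TPM at 1h and at 4.39, 4.53 and 6.97 TPM in 8h replicates 13, 14 and 15. Replicate 15 lay between the 1h libraries, so the groups overlapped, and here replicate 14 was among the low libraries. Mog (chromosome 17, 37010743 to 37023398, minus strand), a surface protein of the outermost lamella and a late marker, was at 1.82 and 0.540 TPM at 1h and at 0.864, 0.185 and 1.27 TPM in 8h replicates 13, 14 and 15. It showed no order by time, and it was the member with the widest range, 9.83 times from lowest to highest library, with a listed coverage of 0.586 to 4.48 reads a base.

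Of the lipid enzymes, Ugt8a (chromosome 3, 125865271 to 125938619, minus strand), which makes galactosylceramide, was at 28.7 and 21.7 TPM at 1h and at 11.4, 21.8 and 17.0 TPM in 8h replicates 13, 14 and 15. Replicate 14 fell within the 1h values and the second series below them. Fa2h (chromosome 8, 111345135 to 111393824, minus strand), which hydroxylates the fatty acids of myelin galactolipids, was at 1.95 and 1.55 TPM at 1h and at 0.728, 1.65 and 1.94 TPM in 8h replicates 13, 14 and 15. Only replicate 13 was apart, below all others.

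Tmem163 (chromosome 1, 127486546 to 127679548, minus strand), a zinc transporter, was at 1.90 and 1.32 TPM at 1h and at 0.327, 1.28 and 0.826 TPM in 8h replicates 13, 14 and 15. All 8h libraries lay below the 1h libraries, and replicate 14 did so narrowly. Cdk18 (chromosome 1, 132112237 to 132139684, minus strand), a kinase of the PCTAIRE family, was at 1.52 and 1.05 TPM at 1h and at 0.360, 1.64 and 0.242 TPM in 8h replicates 13, 14 and 15. Here the split followed the series of library numbers: replicate 14 was the highest of all and the second series lay below every other library, the mean of the first being 4.65 times that of the second.

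**Figure D1:**
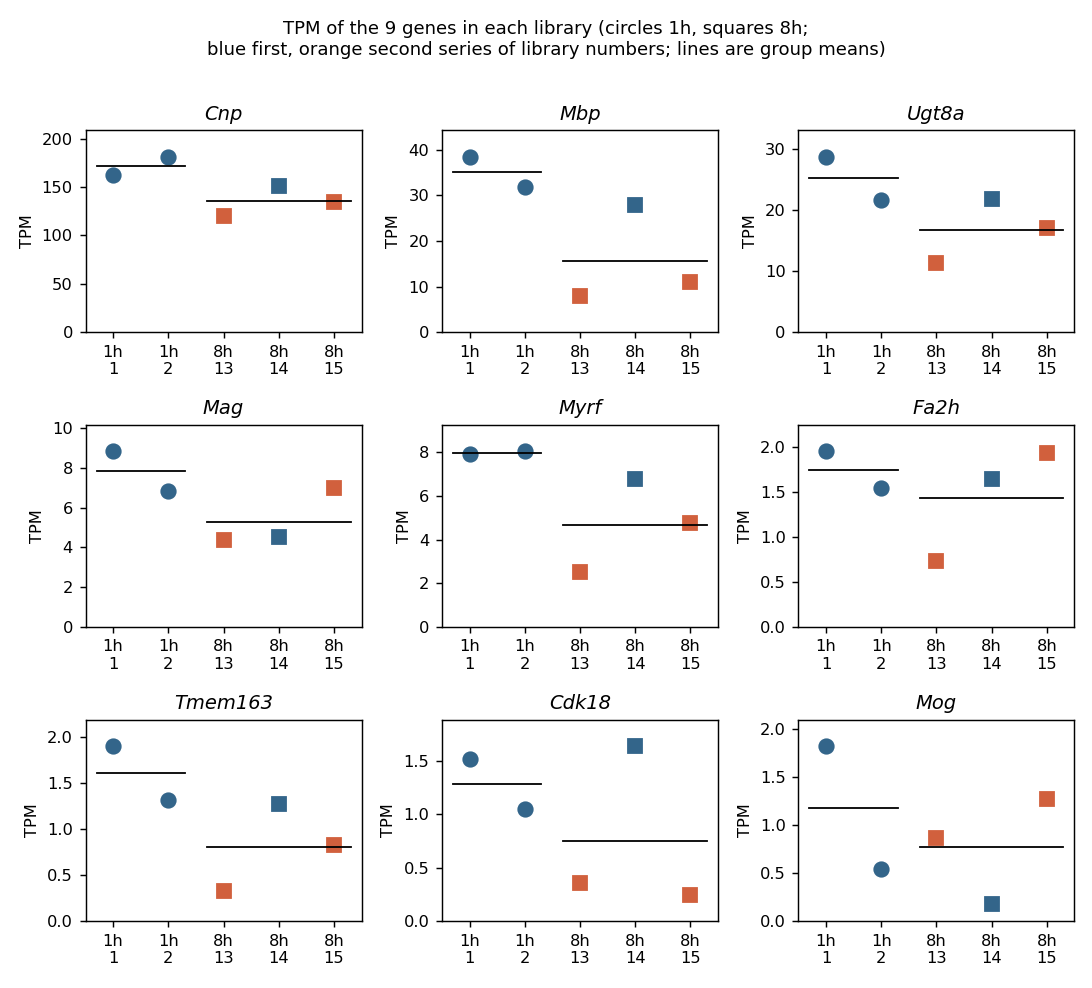
TPM (vertical axes, each from 0) of the 9 genes in each of the 5 libraries (horizontal axes, time and replicate); circles are 1h, squares 8h, blue the first and orange the second series of library numbers, and lines are group means. Both orange squares lie below all other points in Cnp, Mbp (7.96 and 10.99 TPM), Ugt8a, Myrf, Tmem163 and Cdk18. The blue square of 8h replicate 14 lies close to the 1h circles in most panels and lowest in Mog.

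The order of mean TPM was Cnp, Mbp, Ugt8a, Mag, Myrf, Fa2h, Tmem163, Cdk18 and Mog. Neighbours whose ranges over the 5 libraries did not overlap were Cnp and Mbp, Ugt8a and Mag, and Myrf and Fa2h; the other neighbours overlapped, as Mbp and Ugt8a did. The place of Mbp rests on how abundance was estimated. The tables also list the mean read coverage of each gene, and coverage divided by FPKM (the length-scaled fragment abundance in the same tables), relative to the commonest ratio in the library, was 0.107 for Mbp, below all but 4.33% of the genes tested, against 0.385 for Mag, 0.595 for Cnp and 1.00 for Mog. Scaled by that ratio, Mbp went from rank 2 to rank 4 among the 9, with 2.501 TPM on average against 23.4 TPM as listed, and Ugt8a and Myrf stood above it. Mbp has 16 annotated transcripts, from 354 to 4797 bases, more than any other member (2 to 8).

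Across the 9 genes, 4 (Cnp, Mbp, Myrf and Tmem163) were lower at 8h without overlap, and none was higher without overlap. Among the 13870 genes with a mean of at least 1 TPM, 9.43% were lower and 23.7% higher in this way. Of the 7 members that reach that mean, 4 were lower. With Tmem163 scaled by coverage as above, its groups overlapped. The median difference between 8h and 1h was -0.50 on the log2(TPM + 1) scale for the members and 0.10 for all genes tested, with every member below 0, from -1.30 (Mbp) to -0.21 (Fa2h). Scaling the libraries to a common median moved the median of all genes from 0.10 to -0.0045 and that of the members to -0.60. In such bulk samples, fewer cells of the lineage and less RNA per cell cannot be told apart.

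Time and series of library numbers are entangled in this contrast, and the values were therefore also set out within each. In the first series, 8h replicate 14 against the 1h libraries gave a median of -0.19 over the members (8 of 9 below 0; all genes 0.01), from -0.81 for Mog to 0.22 for Cdk18. Within 8h, replicates 13 and 15 of the second series against replicate 14 gave a median of -0.55 (7 of 9 below 0; all genes 0.11), from -1.48 for Mbp to 0.79 for Mog. The second series lay below the first without overlap in 6 of 9 members (Cnp, Mbp, Ugt8a, Myrf, Tmem163 and Cdk18). Of the 7 members with a mean of at least 1 TPM, as the genes tested have, 5 did so, against 13.5% of all genes tested. For 7 of 9 members the step between the series at 8h was larger than the step between the times in the first series, whereas in Mag and Mog 8h replicate 14 lay below the mean of the second series. Neither step has a test here, and the part in them of the mitochondrial share, the Xist and Y-linked levels and the marker sums that moved with the series was not tested.

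**Figure D2:**
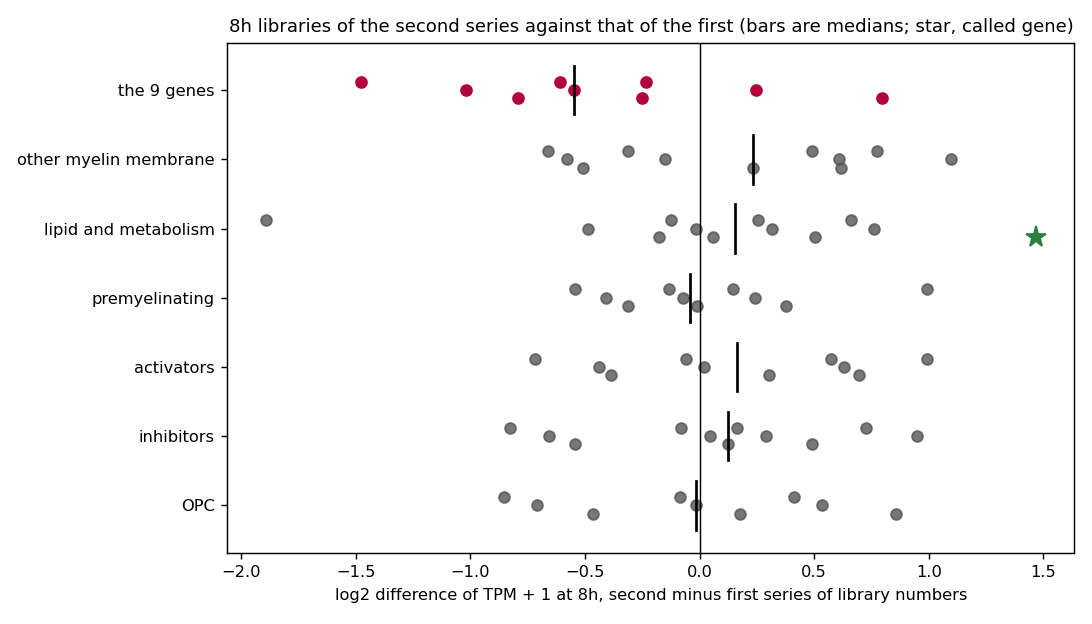
Difference in log2(TPM + 1) at 8h between the second and the first series of library numbers (horizontal axis) for the 9 genes and for other genes of the lineage by list, 1 point a gene, bars at the medians. The 9 genes have a median of -0.55, the medians of the other lists run from -0.04 to 0.23, and the star is Trf (1.47), the called gene. The 9 genes were chosen with these values known, so nothing is read from the contrast with the lists.

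The count table gave a different picture. It lists 7 of the members, not Mbp or Mog, and in the column named 8h replicate 14 each of the 7 was more than 2-fold above every other column. Of 7587 genes with at least 50 counts in all, 0.949% were so high in that column, and 26.9% were highest there by any margin. The members were proposed with these values known, and nothing is read from the count.

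Tmem163 had 58, 51, 53, 289 and 5 counts in the columns named 1h replicates 1 and 2 and 8h replicates 13, 14 and 15, or 4.15, 3.09, 2.94, 19.97 and 0.269 CPM (counts-per-million of the column total). The column named 8h replicate 14 was 7.65 times the mean of the other 4, the largest ratio of 7097 genes with a mean of at least 5 CPM, and the column named 8h replicate 15 was far below all others. Mag followed with 180, 164, 113, 924 and 88 counts, or 12.9, 9.93, 6.27, 63.8 and 4.74 CPM, a ratio of 7.55. Fa2h had 47, 51, 51, 280 and 23 counts (ratio 7.36) and Cdk18 58, 41, 70, 286 and 14 counts (ratio 7.02), and these 4 members held the ranks 1 to 4. Tmem163, Fa2h and Cdk18 reached that minimum mean through the column named 8h replicate 14 alone. Over the 7587 genes with at least 50 counts the highest ratio was 8.27, above that of Tmem163. The ranks thus depend on a minimum that uses the same column, and nothing is read from them.

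The remaining members stood lower in that ranking. Myrf had 426, 466, 469, 1818 and 140 counts in the same order of columns, or 30.5, 28.2, 26.0, 125.6 and 7.54 CPM, a ratio of 5.45 (rank 7). Ugt8a, with 1054, 961, 1038, 2481 and 508 counts, reached 3.14 (rank 25), and Cnp, with 4185, 5179, 4839, 9413 and 3528 counts, reached 2.43 (rank 53). Cnp, the most abundant member, thus had the lowest ratio of the 7. In the TPM table of 8h replicate 14, none of these 7 but Cdk18 was above both 1h libraries (37.6% of all genes tested were). That table and the column of the same name matched for only 25.3% of genes, so they are not 2 measures of the same values.

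**Figure D3:**
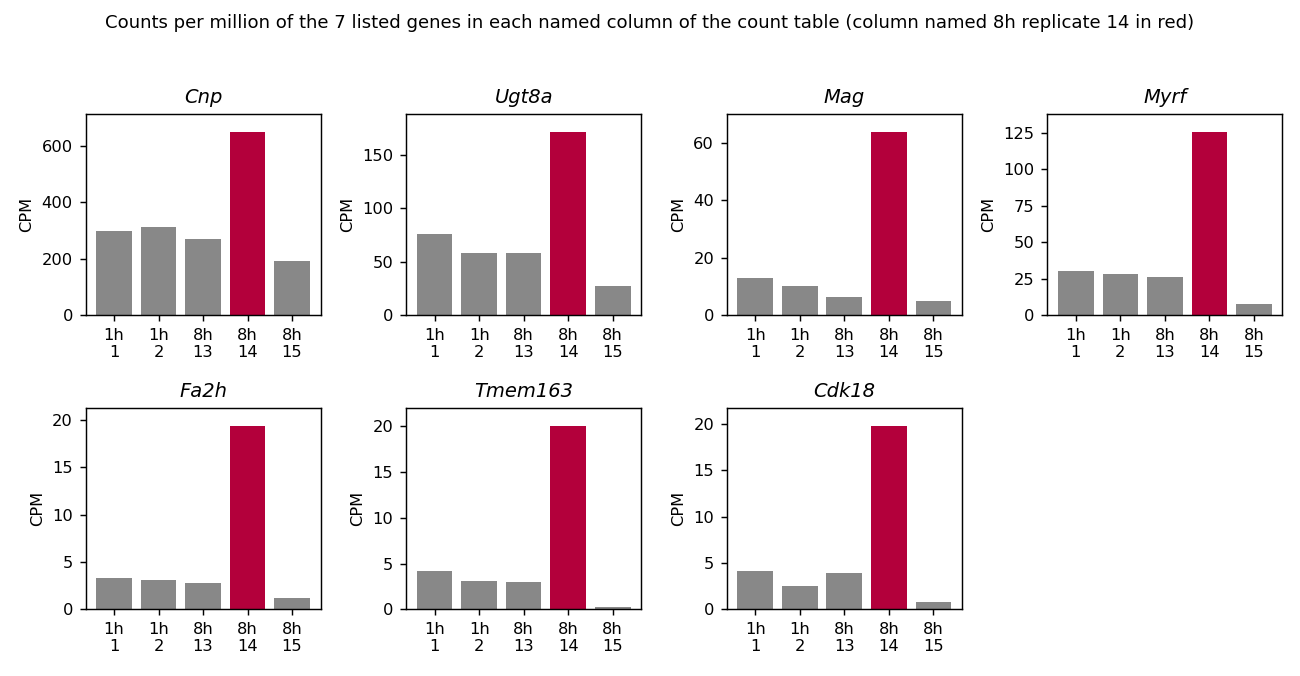
CPM (vertical axes, from 0) of the 7 members listed in the count table, by named column (horizontal axes, time and replicate). The red bar of the column named 8h replicate 14 is the tallest in every panel, from 2.43 (Cnp) to 7.65 times (Tmem163) the mean of the 4 grey bars, and the column named 8h replicate 15 is the shortest in every panel.

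The column named 8h replicate 15 was the lowest for all 7, and the TPM table of 8h replicate 13 for 6 of them (all but Cdk18). That column matched that TPM table best (78.7% of genes), so the 2 are not separate readings. The share of all genes that were lowest in either was not counted, and nothing is read from these counts. Cnp for example stood at 299, 313, 268, 650.3 and 189.96 CPM over the 5 columns, and Mag at 4.74 CPM in the column named 8h replicate 15 against 9.93 and 12.9 CPM at 1h. Because of that column named 8h replicate 14, the difference between 8h and 1h changed sign with the table. Fitted on the counts of all 5 columns, the median log2 difference over the 7 members was 1.05, with all 7 above 0 (highest in Cdk18, lowest in Cnp at 0.24). Without the column it was -0.67, with all 7 below 0 (Tmem163 -1.18, Cnp -0.43), and with the series of library numbers as a term it was 2.43. That term takes each column's series from its name, and the names of the 8h columns did not go with the tables they matched. None of the 7 was lower at 8h without overlap in CPM (7.04% of all 7599 genes were), since the column lay above both 1h columns in each.

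**Figure D4:**
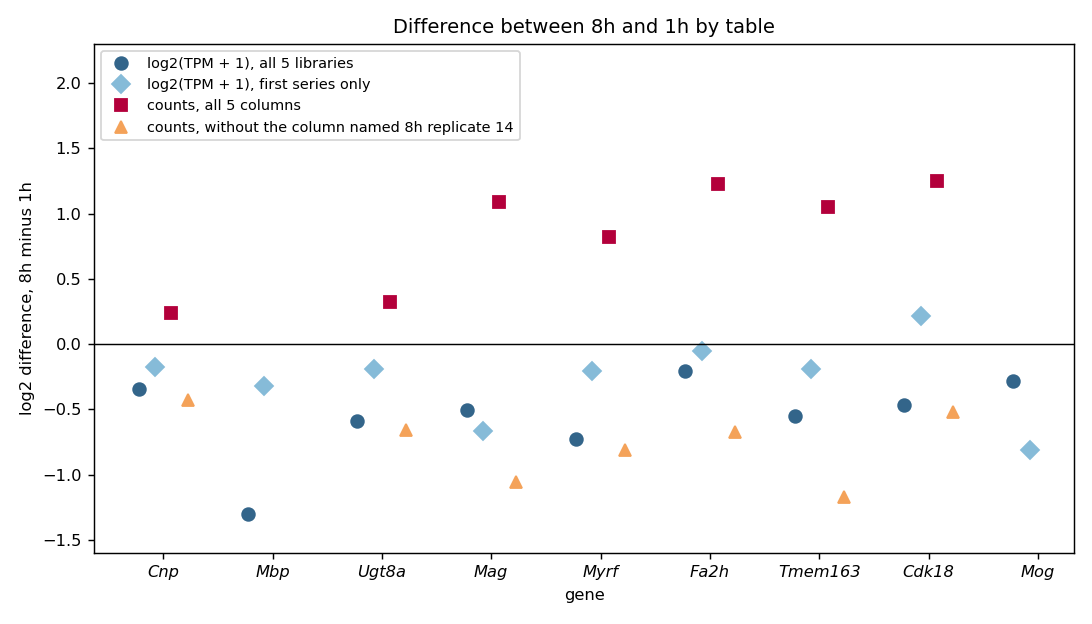
Log2 difference between 8h and 1h (vertical axis) for each gene (horizontal axis), from log2(TPM + 1) over all 5 libraries or the first series alone, and from the edgeR fit on counts with and without the column named 8h replicate 14. All 7 squares (counts, all columns) lie above 0 and all 7 triangles (without that column) below it; Mbp and Mog are not in the count table.

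The same column was high for part of the other lineage genes it lists. Among 10 other proteins of the myelin membrane, 2 were at least 2-fold above every other column, Cldn11, the tight junction protein of central myelin, at 5.27 times the mean of the others (14.6, 9.62, 8.43, 49.2 and 4.68 CPM) and Nfasc, an adhesion molecule of the paranodal loops and nodes, at 3.57 times. In all, 6 of the 10 were highest in that column by some margin, Mobp (1.98 times), Pllp (2.05 times), Tspan2 (1.90 times) and Ermn (1.62 times) among them, and the list's median was 1.76 times, while Cd9 (0.721 times), Pmp22 (0.862 times) and Mal (0.846 times) were below the mean of the others. Of 10 genes of lipid synthesis and metabolism, Elovl7 (3.26 times) and Sirt2 (2.49 times) were more than 2-fold above all others, while Car2 had its lowest value there (0.678 times), and the median was 1.11 times. Of 8 genes of premyelinating cells, Bmp4 (5.80 times), Bcas1 (4.11 times) and Sema5a (3.21 times) were more than 2-fold above all others, 7 of the 8 were highest there, and the median was 1.66 times. These genes were named after their values were seen.

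Lists of regulators and of other cell types were read in the same way. None of 6 activators of differentiation was 2-fold above all other columns (median 1.22 times, Sox10 1.62 times), nor was any of 5 inhibitors (median 0.972 times, Hes1 the lowest at 0.481 times) or of 6 OPC genes (median 1.04 times). The 7 astrocyte genes had a median of 0.686 times, with S100b, which oligodendrocytes make as well, alone high at 4.70 times and Gfap at 0.380 times, and the 6 stem cell genes a median of 0.830 times (all genes 1.01 times). Other genes far up in this column, named after their values were seen, were Cbln2 at 6.52 times, Rasgef1b at 5.38 times and Plcg2 at 5.09 times. Below them stood Hist1h1c at 5.01 times, Gadd45b at 4.54 times, Mt2 at 4.19 times and Slc16a9 at 4.12 times. Txnip at 3.92 times, Lpar1 at 3.88 times and Hmox1 at 3.49 times came next. The part of these genes in the members' values was not tested.

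**Figure D5:**
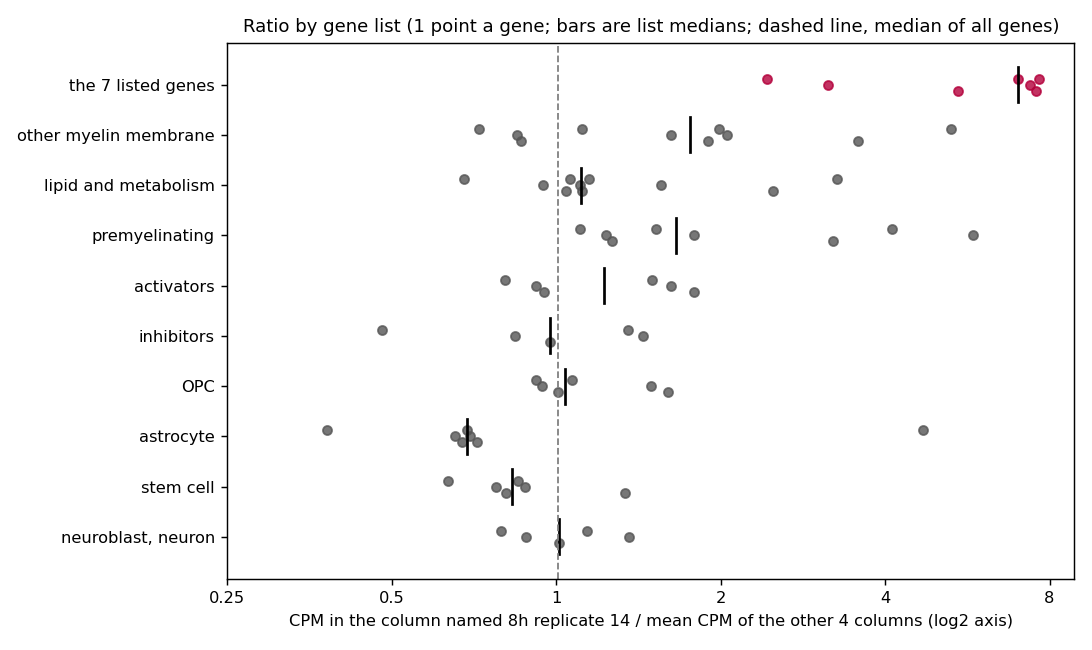
CPM in the column named 8h replicate 14 over the mean CPM of the other 4 columns (horizontal axis, log2 scale) by gene list, 1 point a gene, bars at list medians, dashed line at the median of all genes (1.01). The 7 members, chosen with these values known, lie between 2.43 and 7.65, other myelin membrane genes spread from 0.721 to 5.27, and the astrocyte median is 0.686.

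The rest of the lineage was then read in the TPM tables, with tests, from 6 lists of 74 genes that are no members, of which 61 passed a mean of at least 1 TPM. By limma with Benjamini-Hochberg adjustment (a call needed an adjusted p no higher than 0.05 and a log2 difference beyond 1 in either direction), 0 of the 61 were called between 8h and 1h, against 6 of 13870 genes in all (0.0433%). At an unadjusted p under 0.05, 5 of the 61 were higher and 7 lower at 8h (9.52% and 2.82% of all genes). On the counts, edgeR's quasi-likelihood test called 0 of 44 lineage genes and 0 of 7590 genes in all (0% called; 199 genes at an unadjusted p under 0.05, 227 by DESeq2, which also called 0). The median log2 difference over the 61 was -0.02.

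Between the series of library numbers, with time as a term, limma called 558 genes (4.02%; 3.33% higher and 0.692% lower in the second series), and 1 of the 61 lineage genes. As the second series holds 8h libraries only, the series difference in this fit is 8h replicates 13 and 15 against 8h replicate 14 alone. The 1h libraries enter it only through the spread, so every series difference and call below rests on that single library. The called lineage gene was Trf, the iron carrier transferrin, which oligodendrocytes secrete. It was at 18.8 and 16.9 TPM at 1h and at 36.3, 14.2 and 46.4 TPM in 8h replicates 13, 14 and 15, so that both libraries of the second series lay above all others. The count table lists it at 28, 18, 21, 30 and 55 counts (2.00, 1.09, 1.17, 2.07 and 2.96 CPM) in the columns named 1h replicates 1 and 2 and 8h replicates 13, 14 and 15, few beside its TPM: Mag, at 8.83 TPM in 1h replicate 1, had 12.9 CPM there. The fitted difference was 1.47 ± 0.18 (SE; limma's adjusted p = 0.0117), opposite in sign to that of most members. At an unadjusted p under 0.05, 16 lineage genes were higher and 10 lower in the second series (20.3% and 6.13% of all genes).

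The most abundant genes of the lists are given next, none of them called in this contrast. Among myelin membrane genes, Omg, a glycoprotein of oligodendrocytes and neurons, was at 52.0 and 56.7 TPM at 1h and at 22.5, 39.4 and 26.8 TPM in 8h replicates 13, 14 and 15 (-0.66 between series). All 8h libraries lay below both 1h libraries and the second series below replicate 14, as in Cnp, Mbp, Myrf and Tmem163. Cd9, Plekhb1 and Pmp22, by contrast, had positive differences between series (0.49, 0.77 and 0.61 on the log2 scale). Of the lipid and metabolic genes, Cers2 (-0.12), Car2 (-0.02), Qdpr (0.26) and Sirt2 (0.50) spanned 0. Of the premyelinating genes, Fyn (-0.41), Rap2a (-0.01), Bcas1 (-0.14) and Gpr17 (-0.54) were below 0, Rap2a barely so. The premyelinating list as a whole spanned 0, from -0.54 (Gpr17) to 0.99 (Nkx2-2, named after its value was seen), with a median of -0.04.

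The most abundant activators had positive differences between series, none called. Olig1 and Olig2, the basic helix-loop-helix factors of the lineage, were at 972 to 1629.9 TPM and 429 to 675 TPM, with differences of 0.63 and 0.57, and Sox8 (0.30) and the chromatin remodeller Smarca4 (0.02) were above 0 as well. Sox10, named after its values were seen, was at 19.2 and 28.4 TPM at 1h and at 18.1, 26.1 and 19.8 TPM in 8h replicates 13, 14 and 15 (-0.44). Sox17 was listed at 0 in all 5 libraries. Among inhibitors, Id2, which binds and blocks such factors, was at 235 and 199.95 TPM at 1h and at 90.2, 152 and 80.6 TPM in 8h replicates 13, 14 and 15 (-1.06 between times, limma's adjusted p = 0.309; -0.83 between series). Hdac3 (0.12), Sox6 (-0.66) and Hes1 (0.73) went both ways between series. The OPC genes Ptprz1 (-0.02), Lhfpl3 (-0.47), Cspg5 (0.41) and Pdgfra (-0.09) likewise spanned 0.

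Genes whose levels over the 5 libraries were most like the members' mean profile were ranked by Pearson's r over 10271 genes of at least 5 TPM on average, as a description over 5 libraries that fall into the 2 series of library numbers. The 10 highest were Camsap2 (r = 0.998), Spag9, Ypel3, Jak2, Tmeff2, Srgap1, Chic2, Vps13b, Cul2 and Nrcam (r = 0.988), and 286 genes (2.78%) reached 0.9. Camsap2, which caps microtubule minus ends, was at 74.5 and 67.4 TPM at 1h and at 52.2, 64.8 and 60.5 TPM in 8h replicates 13, 14 and 15. That order of libraries, 1h replicate 1 highest and 8h replicate 13 lowest, is the one the members had on average. Against the mean of the other 8, Tmem163 (0.985), Ugt8a (0.982) and Myrf (0.933) were most alike, Mbp (0.898) and Cnp (0.816) less so, and Mog (0.093) not at all. Of lineage genes looked up after their values were seen, Cldn11 (0.977) and the premyelinating gene Enpp6 (0.942) shared the profile, while Mobp (-0.453), a late protein of the sheath, and Olig2 (-0.747) ran against it.

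Reads over 3 members may not be theirs alone. Exons of Cnp overlap exons of Dnajc7, those of Tmem163 exons of Mgat5 and those of Cdk18 exons of Gm29629, each on the opposite strand. The libraries were made with a stranded kit, but the sources used here do not give the strand setting of the counting, so the share of these reads cannot be told apart. All 9 are protein-coding genes, with the same start and end in the abundance tables as in the GENCODE vM21 annotation.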

How the data were processed

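Poly-A RNA of 5 libraries (2 at 1h, 3 at 8h) was sequenced with a stranded kit as paired ends. Per the study's methods, the authors mapped reads to GRCm38 with STAR and counted them with featureCounts in nf-core/rnaseq; the submitters' processing notes name bcl2fastq 2.19.1.403. The authors deposited a table of raw counts, described as filtered, with 1 column a library, and for each library a table with TPM, FPKM and read coverage (signal per base) for every gene, whose software no source used here names. TPM was summed per gene ID (11 to 13 genes a table had more than 1 row). Genes averaging 1 TPM or more were tested on log2(TPM + 1), pseudocount 1, with limma 3.58.1 (R 4.3.3), and counts with edgeR 4.0.16 (TMM, filterByExpr), DESeq2 1.42.0 being an alternative. Fold changes on the log2(TPM + 1) scale understate those of low genes. Tests were tried on simulated data. Depth was 13988166 to 18572154 counts a column; that of the TPM tables is unknown.

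The members and gene lists were chosen with earlier results of these data known. Named were all members, every called lineage gene, otherwise the 4 of highest mean TPM in each list and any at 0 throughout, and the 10 genes most like the members; others are marked as named after their values were seen. P-values measure the spread between these libraries, which the labels do not tie to animals. A gene symbol of 1 list was not matched, so 73 of 74 lineage genes were listed; a result on a further gene is not reported here. Coverage scaling multiplied TPM by a gene's coverage over FPKM relative to its library's commonest ratio, a choice made after seeing the data.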

Additional observations from a re-analysis of the deposited data

How the results depend on the processing

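No paired analysis was possible because the 1h and 8h groups share no replicate number. The count of genes called between 8h and 1h in the TPM tables was 6, against 0 with no filter on low values and 19 with the series of library numbers as a term; leaving out 1 library at a time gave 0 to 573, and the 573 came without 8h replicate 14, which leaves 8h to the second series alone, while it was 0 without 1h replicate 1, 1h replicate 2 or 8h replicate 15 and 1 without 8h replicate 13. The count between series was 558 and 0 with no filter, where 23583 genes were tested. The members' median difference in the TPM tables was -0.50, moved to -0.19 with series as a term, and ranged from -0.74 (without 8h replicate 14) to -0.35 (without 8h replicate 13) when 1 library was left out; it was -0.47 with coverage-scaled TPM. On the counts it was 1.05, with a range from -0.67 (without the column named 8h replicate 14) to 1.58 (without the column named 8h replicate 15). In the TPM tables the sign of a single member changed for Cdk18 with series as a term (0.22), for Mog without 1h replicate 1 (0.15) and for Fa2h without 8h replicate 13 (0.02). Trf, called between series, had an adjusted p above the threshold with no filter, at the same difference of 1.47. The causes were not tested. Of 562 values under alternatives, 533 kept their call or moved by less than the spread. No call reversed among the tested lineage genes, and for members and gene counts a reversal was not scored. On the counts, the spread for the members' median was 1.59, with the column named 8h replicate 14 in it. A move from 1.05 to 2.43 with series as a term thus counted as within it. With 2 and 3 libraries a group, and members under 2 TPM, single values carry little.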
